A study of Drosophila melanogaster with 4 samples.

Results

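The heat shock genes of unstressed Kc167 cells were followed at 4 loci: the Hsp70 gene loci 87A (3R 7775000 to 7795000) and 87C (3R 8285000 to 8340000), the small heat shock gene locus 67B (3L 9355000 to 9390000) and the Hsp83 locus (3L 3188000 to 3200000). Positions are those of FlyBase release 5. The loci themselves were chosen with earlier results of these data known. A region belonged to a locus when it overlapped one of these windows by at least 1 bp, a rule that used position and no measured value. By this rule the loci held 15 of 4874 enriched regions of replicate 1, 16 of 4822 of replicate 2 and 14 of 5074 in a further list of the replicate set, which is named the combined list here.

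The regions mark RNA polymerase II phosphorylated at serine 5 of the repeats in its C-terminal tail, a form found at the start of transcription and over the early part of genes. Chromatin from Kc167, a female embryo-derived cell line of Drosophila melanogaster with the genotype se/e, was fixed with 1.8% formaldehyde for 10 min and precipitated with a rabbit polyclonal antibody in 2 ChIP libraries. The series also has 2 Input libraries, of which no region list is used here, so no background measured in the same way can be set beside the values. All libraries come from this cell line, and the labels name no heat treatment, which is the only ground for calling the cells unstressed. Whether the replicates came from separate cultures is not stated, so their spread may be technical.

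Heat shock genes are switched on within minutes when cells are warmed, through heat shock factor, which binds elements in their promoters. In Drosophila cells that are not stressed, the Hsp70 genes and several small heat shock genes are textbook cases of a polymerase that has started and then waits a short way into the gene. Hsp83, by contrast, is also transcribed at a substantial level without stress. Hsp70Aa, Hsp70Ab, Hsp70Ba, Hsp70Bb and Hsp70Bc encode nearly identical copies of an ATP-driven chaperone that binds unfolded proteins. Hsp22, Hsp23, Hsp26 and Hsp27 encode small chaperones that hold unfolding proteins in solution, and several of them are also induced by ecdysone in fly cell lines. Hsp83 encodes the fly Hsp90, which matures kinases and hormone receptors.

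The near-identity of the Hsp70 copies limits the placement of sequencing reads, because a read from one copy can match another equally well. The sources used here do not say how reads with several equal matches were handled, and the part of read placement in the results below was not tested. The supplied gene table, which is of release 6, was used for names and gene order only. All 10 members are in it. It lists 6 Hsp70 copies in the 2 loci, the 5 members and Hsp70Bbb, which stands between Hsp70Ba and Hsp70Bb at 87C. Since the table and the regions are of different releases, no region was assigned to a single gene within a locus.

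All 4 loci held enriched regions in all 3 lists. Many windows of the same size do so as well. In the combined list at least 1 enriched region was present in 53.6% of windows of 20 kb (the size of the 87A window), 76.7% of windows of 55 kb (87C), 66.2% of windows of 35 kb (67B) and 43.9% of windows of 12 kb (Hsp83), tiled along 2L, 2R, 3L, 3R and X. The presence of a region at a locus is therefore not in itself a result. What stood out was how much of each locus the regions covered. Together they covered 57.4% ± 0.414 of the bases in the 4 windows, against 15.0% ± 0.204 of the 5 large arms (SD, n = 2 replicate lists). In the combined list the values were 63.9% and 16.6%.

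**Figure D1:**
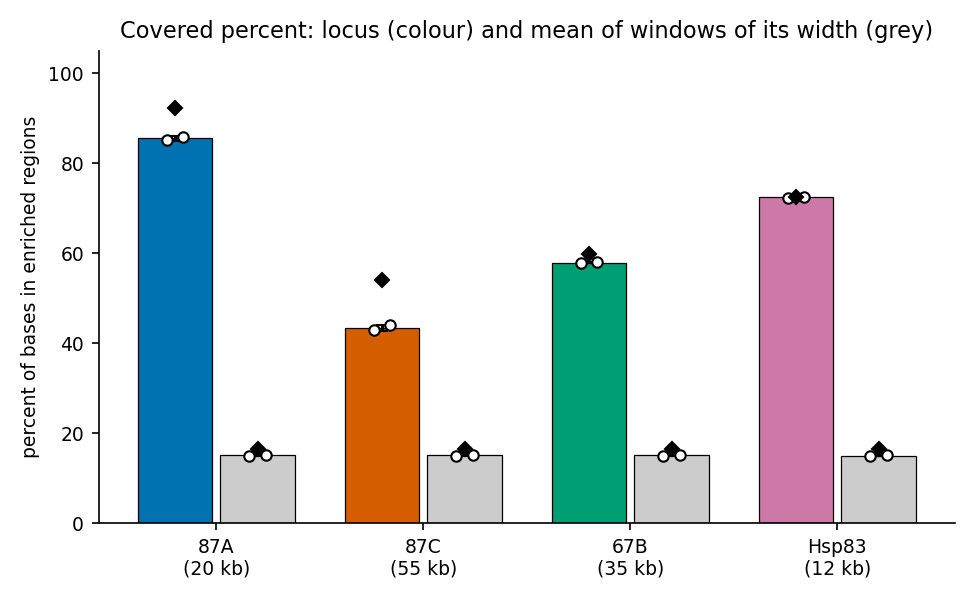
Percent of bases in enriched regions at each locus (coloured bars) and the mean over all windows of the same width on the 5 large arms (grey bars). The grey mean includes windows without any region, which lower it. Bars are the mean of the 2 replicate lists with SD, open circles the replicates and diamonds the combined list; every locus lies far above its grey bar, from 43.5% at 87C to 85.5% at 87A.

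The regions at the loci also scored high within their lists. The score is the authors' value for a region, and its scale is not named in the file. It was therefore ranked within a list. Score differences between lists and width-weighted means, given below, are descriptive only, since the lists may not share a scale. Of the 14 combined regions at the loci, 12 scored above the median of the list and 7 fell in its top 10% by score, against 10% of all regions by construction. In replicates 1 and 2, 6 of 15 and 6 of 16 regions reached the top 10%. The median score at the loci was 2.50 in replicate 1, 2.39 in replicate 2 and 2.56 in the combined list, while the whole lists had medians of 1.46, 1.49 and 1.37. Regions at the loci were wider as well, with median widths of 4.13, 3.85 and 5.28 kb in the same order of lists, against 2.64, 2.73 and 2.73 kb over the whole lists. A wide region meets an overlap of 1 bp more readily, and regions that passed a window edge counted at full width. How much of the excess comes from this rule was not tested. The 5 combined regions of 87C in the top 10% included the highest score of the list, and the remaining 2 lay at 87A and Hsp83.

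**Figure D2:**
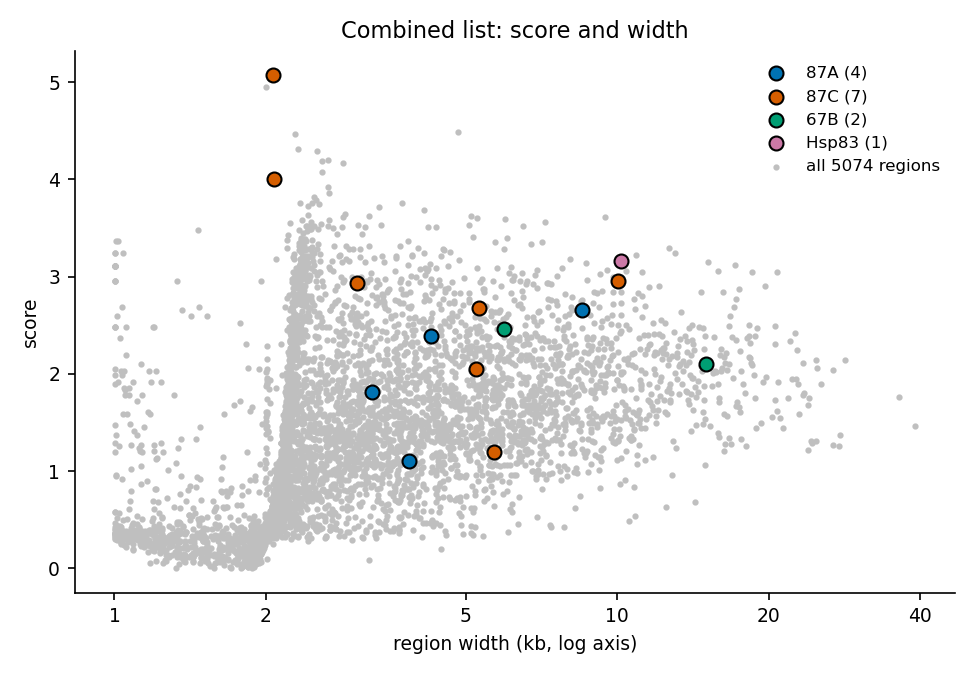
Score against width (kb, log axis) for all 5074 enriched regions of the combined list in grey, with the 14 regions of the heat shock loci in colour. A pair of narrow 87C regions, with scores of 5.07 and 4.00, lies far above nearly all other regions of about 2 kb, whereas the Hsp83 region and the last 87C region combine a width of about 10 kb with scores near 3.

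At 87A, where the gene table places Hsp70Aa and Hsp70Ab next to each other between CG31211 and CG3281, polymerase regions filled nearly the whole window. They covered 85.1% and 85.9% of its 20 kb in replicates 1 and 2 and 92.3% in the combined list. Only 0.706% and 0.622% of 20 kb windows in the replicate lists, and 0.605% in the combined list, were covered as much. Each list held the same succession of 4 regions. The first began before the window and ran to 7777880 in the combined list (4.27 kb, starting at 7773616). It scored 2.50 and 2.34 in the replicates and 2.39 when combined. The second, from 7778502 to 7786992, was the widest and strongest of the locus.

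This second region spanned 7.60 and 7.62 kb in replicates 1 and 2, and 8.49 kb when combined. Its scores were 2.85, 2.69 and 2.66, ranks 363 of 4874, 448 of 4822 and 466 of 5074. A highest score at or above that of 87A occurred in 6.81%, 8.57% and 8.55% of 20 kb windows. The third region, from 7787322 to 7791172, was the weakest at 1.14, 1.11 and 1.10, below the median of each list. The fourth, from 7791374 to 7794620, scored 1.77, 1.97 and 1.81. In both replicates the order by score was thus the second region, then the first, the fourth and the third. The gaps between the 4 regions were short, at most 1495 bp and 1503 bp in the replicates and 621 bp in the combined list, and in both replicates the longest gap was the one between the first region and the second.

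The 87C locus holds Hsp70Ba on one side and Hsp70Bb and Hsp70Bc, with Hsp70Bbb before them, on the other. Between them the gene table lists the alphagamma element, a non-coding unit that is known from Drosophila as heat-inducible, repeated at 87C and similar to the Hsp70 promoter in part of its sequence. The regions called here formed separate islands. Regions covered 43.0% and 43.9% of the 55 kb in the replicates and 54.1% in the combined list. Windows of that size covered as much made up 7.40%, 7.22% and 4.35%. In the combined list the 7 regions of the locus ranged from 2.07 to 10.0 kb in width and from 1.19 to 5.07 in score.

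The outer strong islands were called in both replicates. The region from 8289896 to 8295208 scored 2.59 in replicate 1, 2.77 in replicate 2 and 2.68 in the combined list. The one from 8301950 to 8304980 scored 2.99, 2.88 and 2.94. On the far side, the widest region of the locus ran from 8327106 to 8337142 with scores of 2.99, 2.98 and 2.96. Its width was 10.0, 9.63 and 10.0 kb. At rank 256 of 4874 in replicate 1 and 240 of 4822 in replicate 2, it had a close score in both, while its end differed by 412 bp. A weaker region at the near edge, 8281330 to 8287002 in the combined list, scored 1.48, 1.25 and 1.19. It started at 8281355 in replicate 2. In replicate 1 the same stretch was divided into 2 regions, of which the one that overlaps the window started at 8284721.

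The middle of 87C is where the replicates parted. Replicate 1 called a region from 8307992 to 8310011 with a score of 3.44, rank 62 of 4874, where replicate 2 called none. Replicate 2 called a region from 8315984 to 8317998 with a score of 3.97, rank 9 of 4822, where replicate 1 called none. The nearest region of the other replicate was 3.61 kb away from the first and 4.30 kb away from the second. Each replicate therefore had a long uncovered stretch where the other had its strongest island of the locus, 12.3 kb in replicate 1 and 11.6 kb in replicate 2.

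Both islands were in the combined list, with higher scores than in the replicate that called them. The region at 8315928 to 8317994 scored 5.07 and was the highest of all 5074 combined regions, and the region at 8307958 to 8310034 scored 4.00, rank 11. A highest score at or above that of 87C occurred in 2.64% of 55 kb windows in replicate 1, 0.278% in replicate 2 and 0.0463% in the combined list, the last being the single window that holds the island itself. Regions found in only 1 replicate mostly scored a little lower in the combined list: of the 90 combined regions that overlapped 1 region of replicate 1 and 0 of replicate 2, 2 scored higher than in replicate 1, with a median difference of -0.14. Of the 120 in the opposite case, 2 scored higher than in replicate 2, with a median difference of -0.15. The differences at the 2 islands of 87C, 0.56 and 1.10, were the greatest of these 2 sets. High combined scores without a region in a replicate were not confined to 87C. The region of rank 2 (score 4.95, on sequence U) overlapped 0 regions in each replicate and so is in neither set. That of rank 4 (score 4.47, also on U) overlapped 0 in replicate 1. Scores of different lists may not share a scale, and what sets these differences was not tested.

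**Figure D3:**
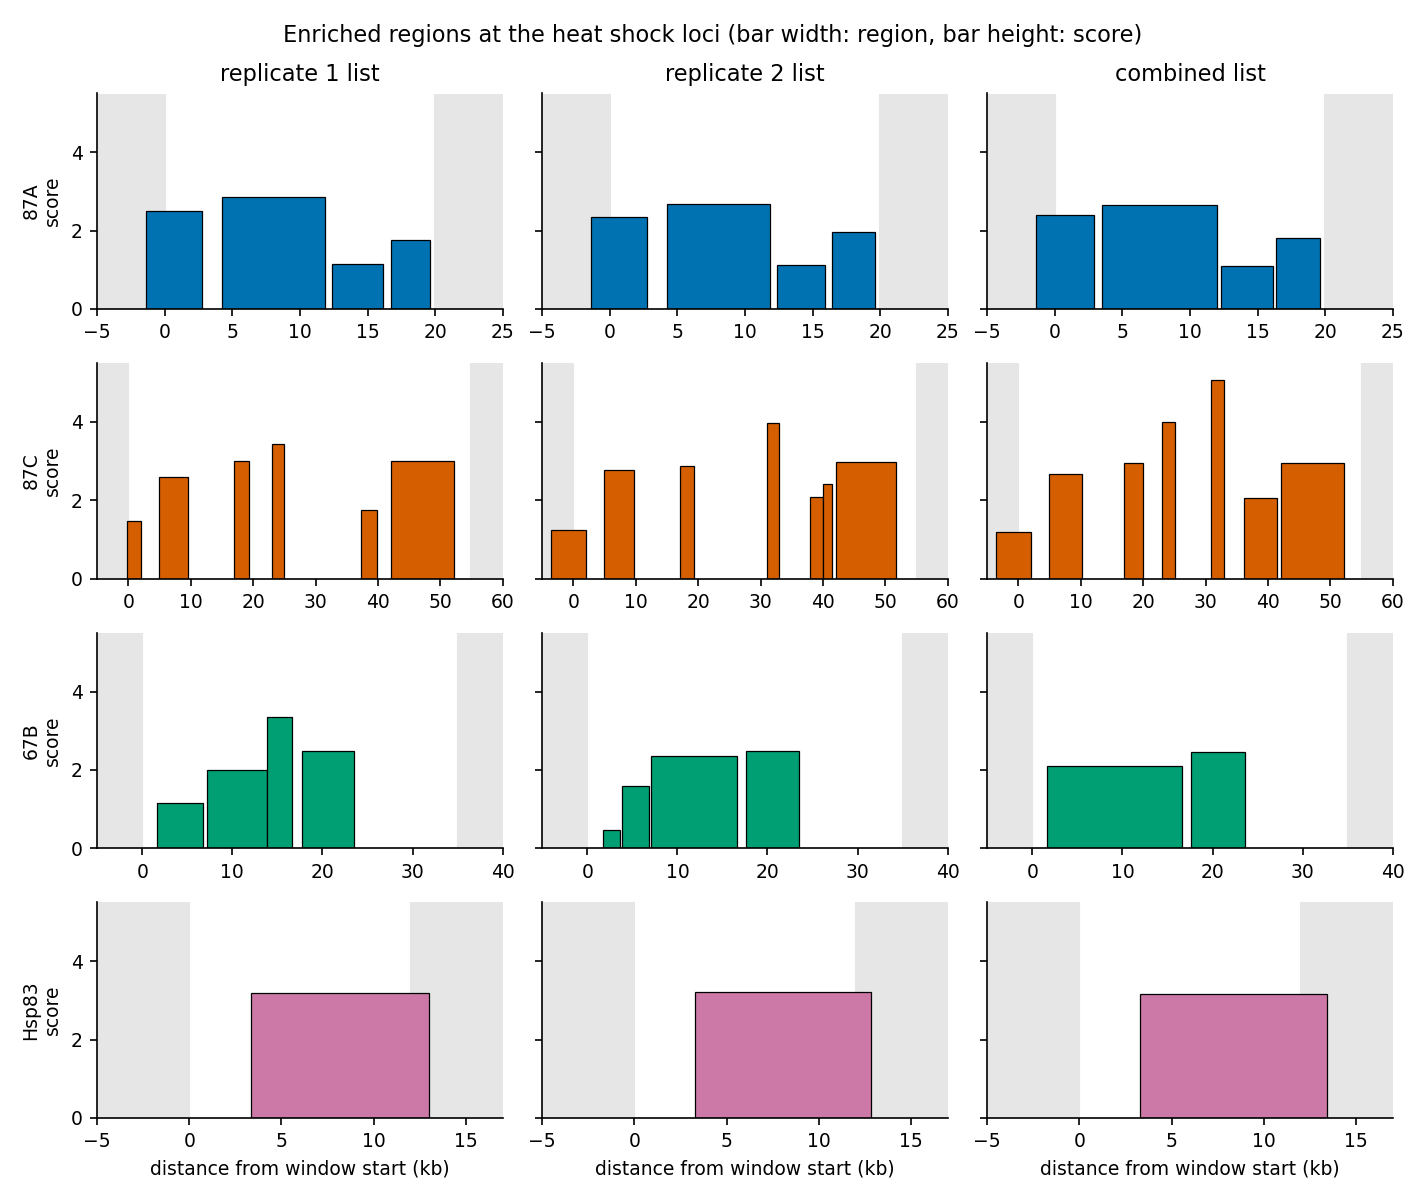
Enriched regions at the 4 loci (rows) in the 3 lists (columns). Each bar spans a region along the distance from the start of the window (kb), its height is the score, and grey marks sequence outside the window; at 87C the middle of the window has a narrow bar in replicate 1, another farther right in replicate 2 and both in the combined list, while 87A and Hsp83 look alike in all 3.

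These 2 islands also scored high for their width. Their combined widths were 2.08 and 2.07 kb, and 591 and 577 regions of the combined list had a width within 5% of theirs. Those regions had a median score of 0.60 and 0.56 and a 90th percentile of 1.29 and 1.18. By score the islands ranked 3 and 1 among them, the rank of 1 being fixed by the highest score of the whole list. In the replicate lists, the island of replicate 1 ranked 3 of 582 regions of its width and that of replicate 2 ranked 1 of 514. The other ranks were not fixed, but they could not be worse than those in the whole lists. Those were 11 for the other combined island, 62 in replicate 1 and 9 in replicate 2. The width-matched ranks are therefore partly set by the scores themselves. Their widths were set beside other regions only once the scores were known.

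A further disagreement lay beside them. Replicate 2 divided the stretch before the widest region into parts from 8322935 to 8324944 (score 2.07) and from 8325061 to 8326408 (score 2.42). Replicate 1 had a region from 8322295 to 8324927 with a score of 1.75, which ended 0.134 kb before the second of these parts. In the combined list the stretch was 1 region from 8321154 to 8326398 with a score of 2.05. The second part therefore counts as missing from replicate 1 although it nearly touches a region there.

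**Figure D4:**
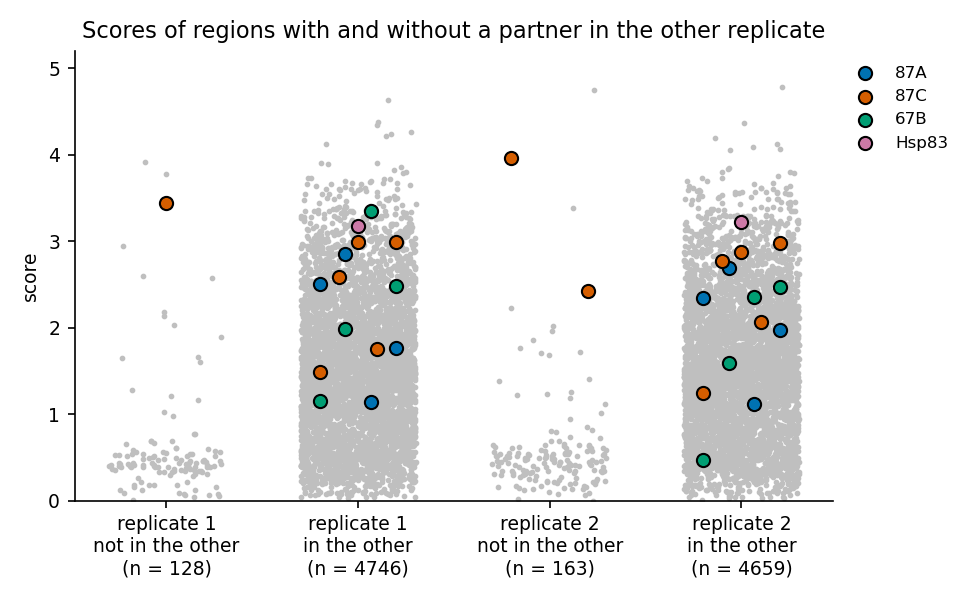
Scores of the regions without (n = 128 and 163) and with (n = 4746 and 4659) a partner in the other replicate, in replicate 1 and replicate 2; grey points are regions elsewhere and coloured points those of the heat shock loci. All 3 coloured points without a partner belong to 87C and lie far above most of the grey ones beside them.

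Counted over all loci, 14 of 15 regions of replicate 1 had a partner in replicate 2, against 97.4% of all its regions, and 14 of 16 of replicate 2 had one in replicate 1, against 96.6% of all. Every region of 87A, 67B and Hsp83 had a partner. The 3 without one were those of 87C just described. Of the 14 combined regions, 9 overlapped exactly 1 region in each replicate, against 79.2% of the whole list. Among regions without a partner, the 3 of 87C ranked high. The island of replicate 1 was number 4 of 128, where the median score was 0.43. The regions of replicate 2 were numbers 2 and 4 of 163, where the median was 0.46. Number 4 of 163 is the part that nearly touches a region of replicate 1. In windows of 55 kb, a region of replicate 1 without a partner occurred in 4.81%, one of replicate 2 in 6.29% and both kinds together in 0.879%, the last being the case at 87C. Of the 14 combined regions 12 were found in both replicates, against 86.9% of all combined regions.

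Base by base, the replicates overlapped less at 87C than at the other loci. The bases in both replicate lists made up 75.3% of those in either at 87C, 96.1% at 87A, 96.2% at 67B and 99.7% at Hsp83 (Jaccard index, in percent). Over the 5 large arms the index was 92.4%. Of the 1620 windows of 55 kb with a region in either replicate, 6.42% had an index as low as that of 87C, while 46.2% of 20 kb windows and 50.4% of 35 kb windows had one at or under that of 87A and 67B. At Hsp83, 94.3% of 12 kb windows were at or under its value. The index counts bases inside a window only. It therefore leaves out the end of the Hsp83 region, which lay past the window and differed by 164 bp between the replicates.

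For the 10 regions of the loci matched 1 to 1 between the replicates, the scores differed by 0.01 to 0.31, with a median of 0.14. The median over all 4325 such pairs was 0.08 and their 90th percentile 0.20. The score was the higher in replicate 1 for 6 of the 10. The greatest difference, 0.31, was that of the 87C region beginning at 8322295 in replicate 1, whose start also differed most, by 640 bp. Starts were a median of 33.5 bp apart and ends 56 bp apart, against 32 bp for each over all pairs. Beside that start of 640 bp, a start at 87A differed by 349 bp, and ends differed by 256 bp at 87A and 412 bp at 87C (the widest region). These 4 lay beyond the 90th percentiles of all pairs, 244.6 bp for starts and 219.6 bp for ends.

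At 67B, all enriched regions lay between 9356588 and 9378574, with gaps between them. In the gene table Hsp22, Hsp26, Hsp23 and Hsp27 follow each other here, interspersed with CG4461, Hsp67Ba and an antisense RNA. Regions covered 57.9% and 58.0% of the 35 kb in replicates 1 and 2 and 59.9% in the combined list, and 3.35%, 3.82% and 4.32% of windows of that size were covered as much. No list had a region over the last 11.4 kb of the window. A highest score at or above that of 67B occurred in 2.41%, 19.5% and 18.3% of 35 kb windows in replicate 1, replicate 2 and the combined list. Which of the 4 genes lie inside the covered part and which outside it was not settled, for the reason of the releases given above.

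The covered part was cut differently in each list. The combined list had a region of 15.0 kb from 9356588 to 9371604 which was among the widest of the list, at rank 104 of 5074, and lay at percentile 77.7 by score. Replicate 1 divided this stretch into 3 regions with scores of 1.16, 1.99 and 3.35, and replicate 2 into 3 regions with scores of 0.46, 1.59 and 2.36. In the whole list 12 combined regions, or 0.236%, were divided into at least 3 in each replicate. The median width of that list was 2.73 kb, so most of its regions had less room for 3 parts. Regions of like width were not compared. The highest score of the locus in replicate 1, 3.35 at rank 81 of 4874, belonged to a 2.73 kb region from 9368878 to 9371604. Replicate 2 did not separate that stretch and held it inside a region of 9.54 kb with a score of 2.36.

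Scores averaged over width were closer. The last 2 parts of replicate 1 had a width-weighted score of 2.38, beside the 2.36 of the single replicate 2 region over the same stretch. Over all 3 parts the width-weighted score was 1.95 in replicate 1 and 1.95 in replicate 2. The second combined region of the locus, from 9372614 to 9378574, was whole in each list. Its width was 5.71, 5.90 and 5.96 kb in replicate 1, replicate 2 and the combined list, and its score 2.48, 2.47 and 2.46.

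Hsp83 was the only locus with 1 region in each list. The region ran from 3191325 to 3201024 in replicate 1, from 3191300 to 3200860 in replicate 2 and from 3191304 to 3201450 in the combined list. It was 9.70, 9.56 and 10.1 kb wide and covered 72.3%, 72.5% and 72.5% of the window, and 4.14%, 4.38% and 5.53% of 12 kb windows were covered at least as much. Its scores of 3.18, 3.22 and 3.16 ranked 146 of 4874, 118 of 4822 and 145 of 5074. A highest score at or above that of Hsp83 occurred in 1.83%, 1.45% and 1.68% of 12 kb windows. The region also passed the end of the window, so the covered percent reflects its start only. Since Hsp83 is flanked by CG14965 and CG14966 in the gene table, the signal of the region cannot be given to Hsp83 alone.

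Set side by side, the loci kept part of their order across the lists. By the highest score of a locus, 87C was first in each list, at 3.44 in replicate 1, 3.97 in replicate 2 and 5.07 in the combined list, each time through an island missing from a replicate. Without those islands the highest 87C score was 2.99 in replicate 1, 2.98 in replicate 2 and 2.96 in the combined list, and Hsp83 stood above 87C in each. The place of 67B depended on the division of its regions: it stood above Hsp83 and 87A in replicate 1 (3.35) and below both in replicate 2 (2.47) and the combined list (2.46). By the width-weighted score, Hsp83 was highest in all 3 lists, at 3.18, 3.22 and 3.16 in replicate 1, replicate 2 and the combined list, followed by 87C at 2.67, 2.56 and 2.67. At 87A these values were 2.25, 2.18 and 2.16. At 67B they were 2.10, 2.10 and 2.20, below 87A in the replicates and above it in the combined list. The width-weighted score of the whole lists was 1.72, 1.74 and 1.65.

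Each Hsp70 locus had a long stretch without enriched regions on 1 side and a short gap on the other. After the last region of 87C (the gene table lists Octbeta3R after Hsp70Bc), the next region was 112 and 113 kb away in replicates 1 and 2 and 83.7 kb away in the combined list. Before 87A the gap was 59.6 kb in both replicates, rank 454 of 4652 gaps in replicate 1 and 459 of 4598 in replicate 2, while the gap after 87C ranked 194 and 192. On the other sides, the gap after 87A was 4.90 and 4.83 kb in replicates 1 and 2, and the gap before 87C was 1.20 and 5.12 kb. The 1.20 kb of replicate 1 lies inside the stretch that it divided and replicate 2 called whole, so these 2 values are not like for like. The median gap between neighbouring regions was 6.55 and 6.71 kb. At 67B and Hsp83 the neighbouring gaps ran from 1.79 to 16.9 kb in the replicates. No region typed as depleted overlapped a locus in any list, and the nearest was 186 kb away, from Hsp83 in the combined list.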

How the data were processed

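Values came from 3 region lists, 1 for each of 2 ChIP replicates and 1 that the authors deposited for the replicate set. Each list gives a region's start, end, type and score, a deposited value whose scale the authors do not name. Positions are of FlyBase release 5, per the file headers. Bowtie 0.12.7 is named in the submitters' processing notes. The sources used here give no region caller, threshold or control. Depth is unknown. Regions typed as enriched were used as deposited. Ranks are over all enriched regions of a list, and background windows were tiled from base 1 of 2L, 2R, 3L, 3R and X. No test was made, since regions are positions and not replicates. Overlap and coverage steps were tested on simulated data. Every region in the 4 windows is described. All members are named, but no value is given for a single gene. Loci and members were chosen with earlier results of these data known. The planned counts of promoter motifs and comparisons of Hsp70 sequences were not made, and the other heat shock response genes are not analysed here, since only a gene table of release 6 was used. Alternatives were wholly contained regions, wider windows, merging, a stricter score, reciprocal overlap, other rankings and single replicate lists. Python 3.11.15, numpy 2.4.6, pandas 2.3.3 and matplotlib 3.10.9 were used.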

Additional observations from a re-analysis of the deposited data

How the results depend on the processing

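Of 56 recomputed values, 38 stayed within 1.5 times for counts, or within the replicate SD for other values, and 18 moved. Some of the 38 could not move. No locus held a depleted region, and at 87C no gap between combined regions was under 500 bp. The SD came from the 2 replicate lists, which were also among the alternatives, so the tally does not measure stability. No paired analysis was possible because the 3 lists used here hold regions of the ChIP libraries only, which leaves no Input value to pair with them. Merging regions within 500 bp left 2 regions at 87A instead of 4 and raised its coverage to 95.0%. Widening by 5 kb gave 4 regions at 67B, and requiring regions wholly inside the window gave 0 at Hsp83. With only scores at or above the median, 73.1% of 87A and 50.5% of 87C were covered. Single replicate lists covered 85.1% to 85.9% of 87A, 43.0% to 43.9% of 87C, 57.9% to 58.0% of 67B and 72.3% to 72.5% of Hsp83. The highest-scoring region stood at percentile 90.7 to 92.6 at 87A, 98.7 to 99.8 at 87C, 86.0 to 98.3 at 67B and 97.0 to 97.6 at Hsp83, and at 98.7 among regions of similar width at Hsp83. A reciprocal overlap of 50% left 12 of 15 and 12 of 16 regions with a partner, against 93.1% and 94.1% of all. Planned motif alternatives were not run. Depth is unknown, so what it limits was not measured and no counting interval is given.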
